A study of Bos taurus with 6 samples.

Results

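bta-miR-224 and bta-miR-452 are the 2 miRNAs described here, of 765 miRNAs with a deposited value in bovine muscle precursor cells treated with the polyphenol resveratrol (RSV). Both were chosen by name as miRNAs of 1 host gene, GABRE, and by the direction of their group means in an earlier look at these data, so their values in the RSV and DMSO groups are given as a description without a test. Each has a single entry without an arm suffix, so the 5p and 3p arms are not told apart. The cells were primary myoblasts grown from fetal beef longissimus dorsi muscle. In the case group, 3 cultures received 20 μM RSV in differentiation medium for 4 days. In the control group, 3 cultures received the solvent DMSO alone. The methods describe 3 independent experiments per group, no genotype or transgene distinguishes the groups, and the number of fetuses behind the cultures is not given in the sources used here.

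A miRNA is cut from a hairpin in a longer transcript and guides the silencing machinery to mRNAs that pair with its seed, the bases near its 5′ end. Many hairpins sit in introns of protein-coding genes, where they can be transcribed together with the host mRNA and can afterwards differ from it in processing and stability. GABRE encodes the epsilon subunit of the GABA-A receptor, a chloride channel opened by the transmitter GABA, and in mammals an intron of this gene carries the hairpins of miR-224 and miR-452. miR-224 is best known from ovarian granulosa cells and tumours, where it represses SMAD4, a mediator of TGF-beta signals. miR-452 is known from neural crest cells, where it represses WNT5A, a secreted Wnt ligand.

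In the RefSeq gene table of cattle assembly ARS-UCD2.0, the span of GABRE on chromosome X held 3 other genes, and all 3 were miRNA genes. They followed each other along the chromosome in the order MIR3431, MIR224 and MIR452. Each of the 3 miRNAs had 1 locus in the table, and none shared both of its group means with another miRNA. The table gives the ends of genes and no exons, and its assembly is not that of the reads, so the intron and the coordinates are not given. bta-miR-3431 was therefore set beside both members. It was taken up for its position, outside the rule for named genes and after the values were at hand.

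Both members were lower in the RSV group. The authors' group mean of bta-miR-224 was 6113 normalized reads in RSV and 7085 in DMSO, which is 13.7% lower, or a log2 ratio of −0.21. For bta-miR-452 the authors' group mean was 5450 normalized reads in RSV and 6879 in DMSO, which is 20.8% lower, with a log2 ratio of −0.34. A normalized read is a read scaled for sequencing depth by the size factor that belongs to its library, and log2 ratios were taken after adding 1 normalized read. The members thus had nearly equal levels in DMSO, and bta-miR-452 lay further below bta-miR-224 in RSV. The level of bta-miR-452 was 0.971 times that of bta-miR-224 in DMSO and 0.892 times that in RSV.

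The third miRNA of the span was lower as well. bta-miR-3431 had an authors' group mean of 11104 normalized reads in RSV and 14604 in DMSO, which is 24.0% lower, with a log2 ratio of −0.40. It stood at 1.82 times the level of bta-miR-224 in RSV and at 2.06 times in DMSO. Its change was closer to that of bta-miR-452, with a difference of 0.06 on the log2 scale, than to that of bta-miR-224, with a difference of 0.18. By group means alone, without a measure of spread between cultures, the size of the change did not follow the order of the 3 genes. MIR224 lies in the middle along the chromosome and had the smallest decrease.

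**Figure D1:**
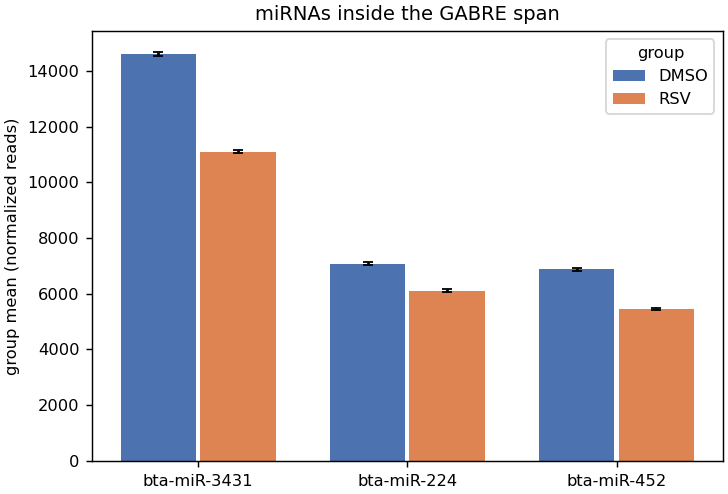
Authors' group means in normalized reads for the 3 miRNAs inside the GABRE span, DMSO and RSV side by side, with bars starting at 0; the error bars are the largest standard error that read counting can give and hold no spread between cultures. The RSV bar is the lower one for all 3, at 11104 against 14604 for bta-miR-3431, 6113 against 7085 for bta-miR-224 and 5450 against 6879 for bta-miR-452.

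The spread between cultures was not analysed here for these 3 miRNAs. The deposited table holds 1 mean per group, and at least 832 combinations of whole reads in 3 libraries gave each of these means, so single libraries could not be read back from it. Counting error can be bounded from the size factors. The standard error from counting was at most 0.016 on the log2 scale for the change of bta-miR-224, at most 0.017 for bta-miR-452 and at most 0.011 for bta-miR-3431. Each decrease exceeded that bound many times over. The difference of −0.12 between the changes of bta-miR-452 and bta-miR-224 also exceeded its counting bound of 0.023, while the spread between cultures behind it was not analysed here.

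The spread between libraries, which holds both counting error and spread between cultures, can be seen in less abundant miRNAs. Of 66 miRNAs whose mean was 100 or more over both groups and no more than 400 in either, 62 had 1 combination of whole reads that gave both means. Their median coefficient of variation between libraries was 8.82% in RSV and 8.72% in DMSO, with upper quartiles of 13.3% and 12.2%. Of these miRNAs, 7 had a log2 ratio between those of bta-miR-224 and bta-miR-3431, and all RSV libraries lay below all DMSO libraries in 5 of the 7. The 7 were picked for a lower mean in RSV, which favours this. Over all 62, all RSV libraries lay below all DMSO libraries in 7 and above them in 16. These are miRNAs of lower level than the members, so counting error weighs more in them, and its share of the spread was not separated. Their spread is set beside the members as a description.

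By level, bta-miR-224 held rank 71 and bta-miR-452 rank 73 among the 765 miRNAs, and bta-miR-3431 rank 45. bta-miR-224 made up 0.0921% of the summed miRNA means in RSV and 0.0965% in DMSO. The corresponding shares of bta-miR-452 were 0.0821% and 0.0937%. The members ranked between bta-miR-133a (rank 64) and bta-miR-133b (rank 80), muscle miRNAs that mark the myogenic lineage. bta-miR-133b was close to the members at 5687 (RSV) and 5550 (DMSO) normalized reads, and in RSV bta-miR-452 lay below it. The muscle miRNA bta-miR-206 was far above the members at 127629 (RSV) and 139464 (DMSO). The values compare read numbers of miRNAs of similar length and not molecules, since adapters are joined to some miRNAs more readily than to others.

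Of the 2 members, bta-miR-452 passed a 1.2-fold decrease with the size factors of the authors and bta-miR-224 did not. bta-miR-452 no longer passed it in 2 of the 4 scalings given further on, with log2 ratios of −0.19 when scaled to the sum of all miRNA means and −0.26 when scaled to the sum without the 10 most abundant miRNAs, against a limit of −0.263. Among the 391 miRNAs that averaged 10 or more normalized reads, 62 (15.9%) were at least 1.2-fold lower in RSV and 69 (17.6%) at least 1.2-fold higher. A log2 ratio below that of bta-miR-224 was found for 81 of the 391 and below that of bta-miR-452 for 33. Among the 146 miRNAs that averaged 1000 or more, where counting error is small, 20 (13.7%) were at least 1.2-fold lower. In these, 28 (19.2%) had a lower log2 ratio than bta-miR-224, and 6 (4.11%) a lower one than bta-miR-452. A lower log2 ratio than that of bta-miR-3431 was found for 1 of the 146 (0.685%), bta-miR-199b with −0.46. The other miRNAs between bta-miR-3431 and bta-miR-452 were bta-miR-26c and bta-miR-26a, with near-equal means, and bta-miR-199a-3p and bta-miR-3604, also with near-equal means, so these 4 names hold 2 separate measurements at most.

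**Figure D2:**
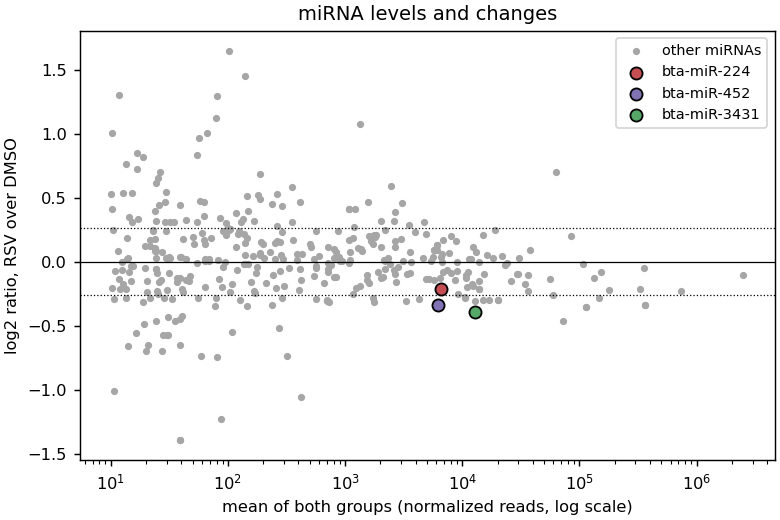
Log2 ratio of the group means, RSV over DMSO, against the mean of both groups on a log scale for the 391 miRNAs averaging 10 or more normalized reads; dotted lines mark 1.2-fold in each direction. bta-miR-3431 at −0.40 and bta-miR-452 at −0.34 lie at the lower edge of the miRNAs of their level, and bta-miR-224 at −0.21 lies inside the dotted lines.

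The decreases depended on how the groups were scaled to each other. The miRNA means summed to 6637960 normalized reads in RSV and 7340620 in DMSO, and the 10 most abundant miRNAs, all lower in RSV, made up 74.4% and 75.6% of these sums. When each group was scaled to its sum, all log2 ratios rose by 0.15, and those of bta-miR-224, bta-miR-452 and bta-miR-3431 became −0.068, −0.19 and −0.25. Under that scaling bta-miR-224 was 4.58% lower in RSV, and the split of all miRNAs past 1.2-fold moved to 26 lower and 128 higher. The median log2 ratio of the 391 miRNAs was 0.005 with the size factors of the authors. All 3 miRNAs stayed lower in RSV under each of the 4 scalings tried, and their order and the difference of −0.12 between the members do not depend on the scaling.

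**Figure D3:**
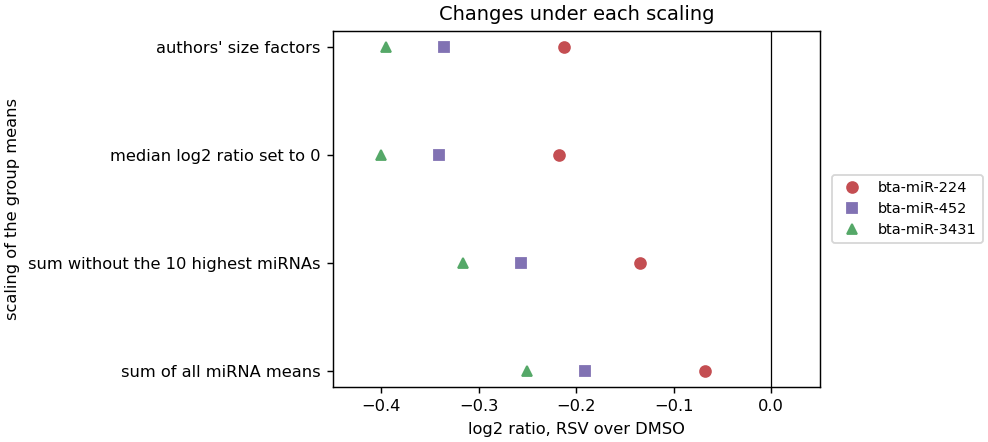
Log2 ratio, RSV over DMSO, of the 3 miRNAs inside the GABRE span under 4 scalings of the group means, 1 row for each scaling. All 12 points lie below 0, from −0.40 for bta-miR-3431 to −0.068 for bta-miR-224, and each miRNA is nearest to 0 when groups are scaled to the sum of all miRNA means.

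Whether 2 miRNAs of 1 locus differ by as much as the members do was read from other pairs. A list of 27 pairs known to lie close together was written with earlier results of these data known, and all 27 had loci within 50 kb of each other in the RefSeq table. Both partners reached a mean of 10 normalized reads in 24 of them, the other 3 had a partner with a lower mean or no value, and in 6 of the 24 at least 1 name also has a further locus. The absolute difference between the log2 ratios of both partners had a median of 0.13, and it ranged from 0.00063 to 0.59. The 0.12 of bta-miR-224 and bta-miR-452 was larger than that of 12 pairs and smaller than that of the other 12. Among the 15 pairs in which both partners averaged 1000 or more, 10 were closer together than the members and 5 were further apart.

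The closest pairs were miR-450a with miR-542, miR-93 with miR-25 and miR-15b with miR-16b, with differences of 0.00063, 0.018 and 0.025. The first of these rests on bta-miR-542-5p at 23.6 (RSV) and 24.7 (DMSO) normalized reads, a level at which counting error is large. The widest were miR-181c with miR-181d, miR-183 with miR-182 and miR-200a with miR-200b, with 0.59, 0.35 and 0.31, and at least 1 partner of each had a mean under 100 normalized reads. In direction, both partners were lower in RSV in 9 pairs, both were higher in 7, and they went opposite ways in 8. Both partners lay at or below the log2 ratio of bta-miR-224 in 3 of the 24 pairs, and 1 of these, miR-199a with miR-214, had partners with means over 1000 normalized reads. The members shared a direction, but they were chosen by the direction of their group means, so this is no result beside the other pairs. The distance between the members lay near the median of the 24 pairs. It lay above the median of 0.090 of the 15 pairs in which both partners averaged 1000 or more.

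**Figure D4:**
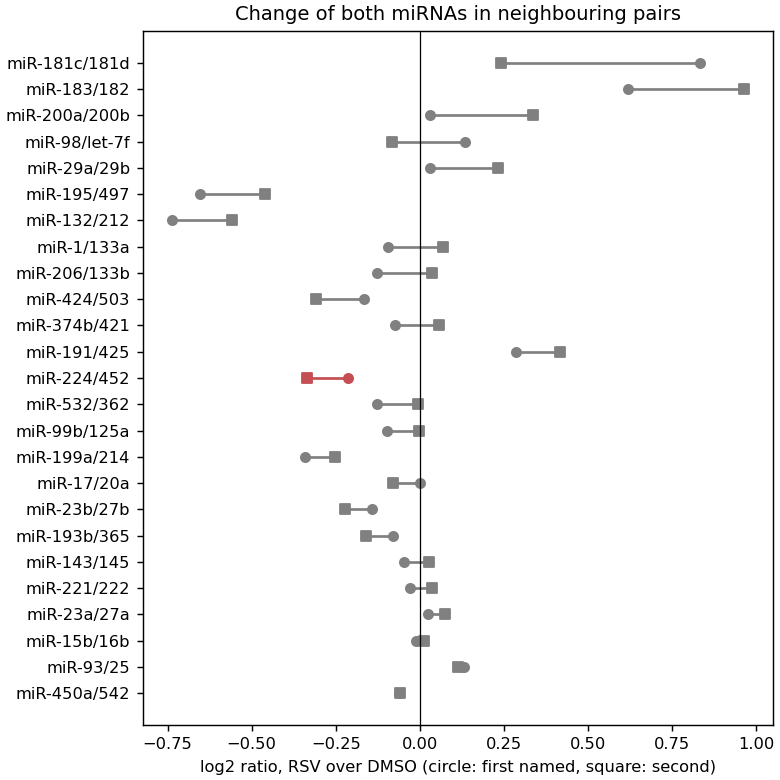
Log2 ratio, RSV over DMSO, of both miRNAs in 24 pairs of neighbouring miRNAs (grey) and in the pair of bta-miR-224 and bta-miR-452 (red), ordered by the distance between partners; circles mark the first name and squares the second. The distance of 0.12 within the red pair has 12 grey pairs below it and 12 above it, and both of its points lie left of 0.

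The host mRNA, which the choice of the members did not use, was lower in RSV. In the 3 RSV libraries GABRE (ENSBTAG00000013548) stood at 199.5, 170.7 and 172.7 normalized reads, against 338.3, 255.3 and 294.5 with DMSO alone. The highest RSV library lay 55.9 normalized reads below the lowest DMSO library, so the groups did not overlap. These values rest on 584 whole reads over the RSV libraries and 832 over the DMSO libraries, recovered from the group means. The identifier was paired with the name GABRE through the study's sheet of DE mRNAs, so GABRE could be found only because the authors had called it changed, and its test is not independent of that.

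The mean was 180.95 ± 16.1 normalized reads with RSV (SD, n = 3) and 296.0 ± 41.5 with DMSO (SD, n = 3), which is 38.9% lower. The mean difference in log2(normalized reads + 1) was −0.70 (p = 0.1 by a two-sided exact permutation test, which cannot go lower with 3 libraries against 3). limma voom over all 14722 mRNAs with recovered reads that averaged 10 or more gave GABRE a log2 fold change of −0.70 with a standard error of 0.13 and a Benjamini-Hochberg adjusted p of 0.0065. Of these mRNAs, 3870 (26.3%) had all RSV libraries below all DMSO libraries, and limma voom called 2534 (17.2%) lower in RSV at an adjusted p under 0.05. A lower log2 ratio of group means than that of GABRE was found for 920 (6.25%). Leaving out any 1 library kept the mean log2 difference between −0.80 and −0.60.

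**Figure D5:**
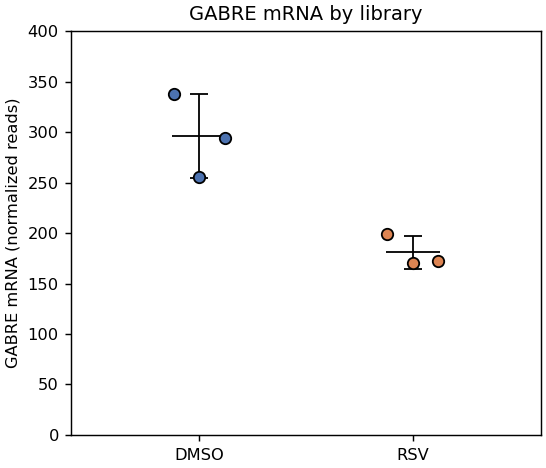
GABRE mRNA in normalized reads for each of 3 DMSO and 3 RSV libraries (points), with the group mean and SD as horizontal and vertical lines. The RSV points run from 170.7 to 199.5 normalized reads, all below the DMSO points, which run from 255.3 to 338.3.

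Host mRNA and miRNAs therefore shared a direction with different sizes of change. The log2 ratio of group means was −0.71 for GABRE mRNA, against −0.21, −0.34 and −0.40 for bta-miR-224, bta-miR-452 and bta-miR-3431. The mRNA and miRNA libraries were normalized separately, and the difference was not tested because the group means give no spread of the miRNAs between cultures. Levels of GABRE mRNA and of the miRNAs cannot be compared, as they come from different library types. In RNA from whole cultures, fewer cells that express a gene and less RNA per cell cannot be told apart.

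Published targets of both miRNAs could be described only in part. Like GABRE, a target has a name here only if it is on the sheet of DE mRNAs, and its direction is given without a test. Of 8 listed miR-224 targets 1 had a name, PEBP1, an inhibitor of RAF kinase. PEBP1 ran from 2818 to 3000 normalized reads across RSV libraries and from 3662 to 3693 across DMSO libraries, a log2 ratio of group means of −0.35. Of 4 listed miR-452 targets 2 had a name. WNT5A, a Wnt ligand, stood at 379, 413 and 309 normalized reads with RSV against 569, 567 and 646 without it, a log2 ratio of −0.69. CDKN1B, an inhibitor of cyclin-dependent kinases, ran from 905 to 950 normalized reads with RSV and from 1203 to 1240 without it, a log2 ratio of −0.40. The groups did not overlap for any of these 3 targets, which their presence on the sheet largely fixes, beside 26.3% of all tested mRNAs with every RSV library below every DMSO library. The other 9 listed targets were not analysed here. The paper counts bta-miR-452 among its top down-regulated miRNAs and predicts from sequence that it targets a set of up-regulated genes. Those predicted targets were not analysed here either. GABRA3 and GABRQ, the GABA-A receptor genes listed as neighbours of GABRE, had no name either.

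The labelled cell type was checked where names allowed it. The listed muscle miRNAs bta-miR-1, bta-miR-133a, bta-miR-133b and bta-miR-206 were abundant in both groups, at ranks 24, 64, 80 and 10 of 765. Their log2 ratios ran from −0.13 to 0.07. Outside the list, the muscle miRNA bta-miR-499 was low at 115 (RSV) and 46.1 (DMSO) normalized reads, with a log2 ratio of 1.29. bta-miR-133c, with a log2 ratio of 0.28, and bta-miR-208b, with −0.089, were also much less abundant than the listed ones. Of 5 myoblast mRNA markers 1 had a name, MYH3, and its reads could not be recovered. The paper describes MYH3 as up-regulated by RSV. Of 3 fibroblast markers 2 had a name, and reads were recovered for PDGFRA, a receptor of fibroblasts and fibro-adipogenic cells, which ran from 6697 to 7277 normalized reads across RSV libraries and from 9068 to 9381 across DMSO libraries. PDGFRA was lower in RSV in the same libraries as GABRE, with a log2 ratio of −0.42, and its part in the changes described was not tested. Like GABRE, PDGFRA has a name here only because it is on the sheet of DE mRNAs, which largely fixes that it differs.

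The miRNAs nearest to each member in log2 ratio were taken from the 248 miRNAs that averaged 100 or more normalized reads. Around bta-miR-224 these were bta-miR-148a, bta-let-7a-3p, bta-let-7b, bta-miR-3596 and bta-miR-455-3p, with log2 ratios from −0.22 to −0.21. Around bta-miR-452 they were bta-miR-197, bta-miR-3604, bta-miR-199a-3p, bta-miR-2440 and bta-miR-1468, with log2 ratios from −0.35 to −0.32. bta-let-7b and bta-miR-3596 had equal means. With 2 group means per miRNA, likeness rests on a single number.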

How the data were processed

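RNA from 3 RSV and 3 DMSO cultures was sequenced for mRNA and miRNA. Per the methods and the submitters' processing notes, miRNA tags were mapped to UMD_3.1.1 (bosTau8) with Bowtie 0.12.9 and named by miRBase 20.0. Reads were filtered with in-house scripts, and the aligner and counting tool for mRNA reads are not given in the sources used here. The deposited values are the authors' group means of read counts divided by library size factors. The values of their fold changes, P-values and adjusted P-values were not used. Gene names came from the identifier and name columns of their sheet of DE mRNAs, so only mRNAs they had called could be named. The sheet gave 1781 names, fewer than the DE mRNAs the paper reports.

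In the mRNA part, decimal points were missing from means of 1 and above. Each was restored by finding the single combination of 3 whole read counts, over size factors recovered from the smallest values, that gives its digits. This succeeded in both groups for 26027 of 26332 mRNAs, including 5873 without reads. The search had an upper limit on the mean, so the most abundant mRNAs were outside it. Recovered mRNA reads summed to between 11027852 and 13192155 per library. Above a mean of 100 normalized reads, searched combinations were limited to libraries holding 10% to 70% of the sum. Recovered libraries carry no replicate number. miRNA means kept their decimal points. As the number of reads is known only within bounds, counting errors are upper bounds.

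The members, lists and pairs were chosen with earlier results of these data known. Named genes were the members, GABRE, listed targets and markers with a name, the 3 closest and 3 widest pairs, and the 5 miRNAs nearest to each member. GABRE was tested with a two-sided exact permutation test. limma voom (limma 3.58.1, R 4.3.3) was added after seeing the data. It adjusts p-values over 14722 mRNAs by the method of Benjamini and Hochberg. Decoding of mRNA means and limma voom were tested on simulated data, and decoding of miRNA means was not. The simulated mRNA means lay below those of PDGFRA. The remaining work was done with numpy 2.4.6, scipy 1.17.1, pandas 2.3.3, numba 0.67.0 and matplotlib 3.10.9 in Python 3.11.15. Alternatives were the pseudocount, the mean filter, the fold, the scaling and each library left out. Mature sequences were not used here.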

Additional observations from a re-analysis of the deposited data

How the results depend on the processing

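No alternative reversed a direction. Scaling to the sum of all miRNA means moved the log2 ratios of bta-miR-224 and bta-miR-452 to −0.068 and −0.19 and the share of miRNAs at least 1.2-fold lower from 15.9% (62 miRNAs) to 6.65% (26). Scaling to the sum without the 10 most abundant miRNAs, chosen after seeing the data, moved both to −0.13 and −0.26. Under both of these scalings bta-miR-452 no longer passed the 1.2-fold decrease. The share became 24.97% of 765 without the mean filter, 12.9% (32) with a minimum mean of 100 normalized reads and 3.32% (13) at 1.5-fold. For GABRE, limma voom gave a log2 fold change of −0.70 with an adjusted p of 0.0065, where the exact permutation test cannot pass 0.05. GABRE could be named only because the authors had called it changed, so neither test is independent of that call. Without single libraries its difference ranged from −0.80 to −0.60, with an exact permutation p of 0.2, the smallest for 2 against 3. Pseudocounts of 0.5 and 5 moved no log2 ratio of a member by more than its counting error. Leaving out libraries was not run for the members, whose single libraries could not be recovered from the group means. No paired analysis was possible because the group columns and the recovered libraries carry no replicate numbers.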
